A study of Homo sapiens with 18 samples.

Results

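The counts of 5 genes were followed across the 6 groups of this RNA-seq study: the rows of the ferritin genes FTH1 and FTL, the row of the autophagy receptor gene SQSTM1, and the rows of BEST1 and C5orf45, whose exons lie on the DNA strand opposite FTH1 and SQSTM1. They are 5 of the 57773 rows of the count table. They were chosen by measured values of these same libraries: BEST1 holds the highest mean count of the table while FTH1 is low, C5orf45 and SQSTM1 stand in the same order, and the direction of BEST1 under tamoxifen in each line was known. The levels of the rows, the order of paired rows and all effects on BEST1 are therefore given as description with no test, and the p-values of the other rows are no independent support for the choice. All 5 rows passed the filter of at least 10 counts in at least 3 libraries, which 5816 rows passed.

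The libraries came from RWPE1 cells, an established line of benign human prostate epithelium, that carry an inducible MACC construct. All 6 groups share the DNA-binding domain of the androgen receptor, which recognises androgen response elements, joined to ERT2, a mutant estrogen receptor domain that responds to tamoxifen, and they share selection in blasticidin. The neutral construct adds only a 3X FLAG tag, the repressive construct adds KRAB and the activating construct adds VP64, and each of the 3 lines received ethanol vehicle or tamoxifen for 48 hours in 3 biological replicates, which makes 18 libraries. The labels give tamoxifen as 1.5 uM in the treatment field and 1.25 uM in the protocol field. Vehicle groups carry the construct too, and each construct was studied in 1 stable line, so that a difference between constructs and another difference between the lines cannot be told apart. The sources used here do not say whether a line is 1 clone.

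Ferritin is the hollow protein shell in which cells store iron, built from heavy chains (FTH1), which oxidise iron, and light chains (FTL), which help to form its mineral core. SQSTM1, also called p62, binds ubiquitin-tagged cargo and carries it into autophagosomes, and it also binds KEAP1, the adaptor that marks the stress factor NFE2L2 for degradation. When iron is needed, NCOA4 brings ferritin to the lysosome by the same general route of selective autophagy. BEST1 encodes bestrophin, a chloride channel known from the retinal pigment epithelium, and C5orf45, now named MRNIP, encodes a protein of the DNA damage response.

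Total counts per library lay between 675609 and 792282. The rows of the 6 basal epithelial markers held a summed 1792 to 3502 counts per library. The rows of KLK2 and KLK3, which define luminal prostate cells, were at 0 in all 18 libraries. The strand setting used for counting is not given, so a row at 0 does not show that its gene was not expressed. Of these 6 basal markers 3 rose with tamoxifen in the neutral line, where 0.774% of all rows tested were called, and 3 in the repressive line (9.65% of all rows), and in the activating line 1 rose and 1 fell (2.8% of all rows). Their part in the results on the ferritin rows was not tested. No library stood apart by its total, and the labels name no batch. In a bulk sample, fewer cells of a type and less RNA per cell cannot be told apart.

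In the GRCh37 annotation BEST1 (ENSG00000167995) spans chr11:61717535-61732987 on the plus strand, and FTH1 (ENSG00000167996) spans chr11:61727190-61735106 on the minus strand. Their exons share 1267 bases, which are 14.6% of the 8688 exonic bases of BEST1 and 63.2% of the 2004 of FTH1. A further row, CTD-2139B15.2 (ENSG00000248223, chr5:17354019-17355008, plus strand), is an RNA opposite the ferritin pseudogene FTH1P10 with no coding sequence. Within the stretch that holds the shared exons of BEST1 and FTH1, the longest run of letters found in common with CTD-2139B15.2 is 114 bases. Other stretches of BEST1 were not searched for such a run. Reads can be divided between these rows, so the p-values given below for FTH1 and CTD-2139B15.2 are no support separate from BEST1.

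Words of 31 bases were used to ask which rows hold FTH1 sequence on the opposite strand. Of the 55538 rows with an annotated transcript, 4 held the reverse complement of an FTH1 word. BEST1 held 1211 of the 2223 words (54.5%) and CTD-2139B15.2 held 154 (6.93%), whereas the remaining pair, RP11-257P3.3 and RP11-157I4.4, held 32 and 22 and had mean normalized counts of 0 and 0.108. FTL (ENSG00000087086, chr19:49468566-49470136, plus strand) has no exon overlap on the opposite strand, and no row held the reverse complement of its 841 words.

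SQSTM1 (ENSG00000161011, chr5:179233398-179265078, plus strand) and C5orf45 (ENSG00000161010, chr5:179262133-179289173, minus strand) meet at their 3' ends. They share 1582 exonic bases, 21% of those of SQSTM1 and 18.7% of those of C5orf45, and C5orf45 held 1528 of the 7663 SQSTM1 words (19.9%) as reverse complement. A stretch of 30 of these bases, coding in SQSTM1 and untranslated in 1 C5orf45 transcript, is shown on both strands.
SQSTM1, chr5:179263436-179263465, plus strand: aggctgacccgcggctgattgagtccctct
C5orf45, chr5:179263436-179263465, minus strand: agagggactcaatcagccgcgggtcagcct

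The libraries were made with a stranded mRNA kit, and the strand setting used for counting is not given in the sources used here. Reads of a gene and of its opposite-strand partner cannot be told apart from the count table alone, and each row below is named by its label in the table and not as the RNA of that gene. The table gives expected counts, that is, estimated reads per gene. Percent of library divides a count by the total of its library, and a normalized count divides it by a DESeq2 size factor.

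BEST1 took on average 7.98% of all counts, from 4.79% to 12.8% over the 18 libraries. In the neutral line it held 7.41%, 7.58% and 7.33% with vehicle and 9.38%, 9.50% and 8.95% with tamoxifen. In the repressive line it held 5.55%, 6.85% and 7% with vehicle and 12.4%, 12.8% and 12.7% with tamoxifen. The activating line held 6.34%, 7.08% and 7.12% with vehicle and 5.25%, 5.68% and 4.79% with tamoxifen. The tamoxifen libraries thus lay above all vehicle libraries of their line in the neutral and the repressive line and below them in the activating line. Ordered by mean normalized count, the groups ran from the repressive line with tamoxifen (98406 ± 3826, SD, n = 3) through the neutral line with tamoxifen (68339 ± 2982), the neutral line with vehicle (54749 ± 1005), the activating line with vehicle (48057 ± 2729) and the repressive line with vehicle (45996 ± 6401) to the activating line with tamoxifen (36310 ± 3423). The libraries of the last 3 groups overlapped between neighbours in this order, and replicate 1 of the repressive line with vehicle was the lowest vehicle library at 38764.

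FTH1, the heavy chain row, held 174 to 483 counts per library, a mean of 0.0374% of all counts. In the neutral line the counts were 174, 288 and 266 with vehicle and 342, 351 and 302 with tamoxifen. The repressive line held 185, 282 and 272 with vehicle and 483, 391 and 344 with tamoxifen. The activating line held 242, 244 and 303 with vehicle and 182, 185 and 195 with tamoxifen. As for BEST1, the tamoxifen libraries did not overlap those with vehicle in any line, and they were higher in the neutral and repressive lines and lower in the activating line. The highest group was the repressive line with tamoxifen at 428 ± 58.7 normalized counts (SD, n = 3) and the lowest the activating line with tamoxifen at 179 ± 6.21, while the 3 vehicle groups, at 226 to 244, overlapped each other.

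CTD-2139B15.2, the row opposite the FTH1P10 pseudogene, held 541 to 1485 counts. With vehicle and tamoxifen in turn it held 888 ± 29.7 and 1065 ± 83.5 normalized counts in the neutral line (SD, n = 3), 742 ± 96.7 and 1469 ± 26.5 in the repressive line, and 735 ± 46.9 and 573 ± 80.8 in the activating line. Its tamoxifen libraries also lay wholly above the vehicle libraries in the neutral and repressive lines and wholly below them in the activating line. Of the ferritin pseudogenes themselves, 32 of 41 rows were at 0 in every library and none reached 10 counts, so none was tested.

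**Figure D1:**
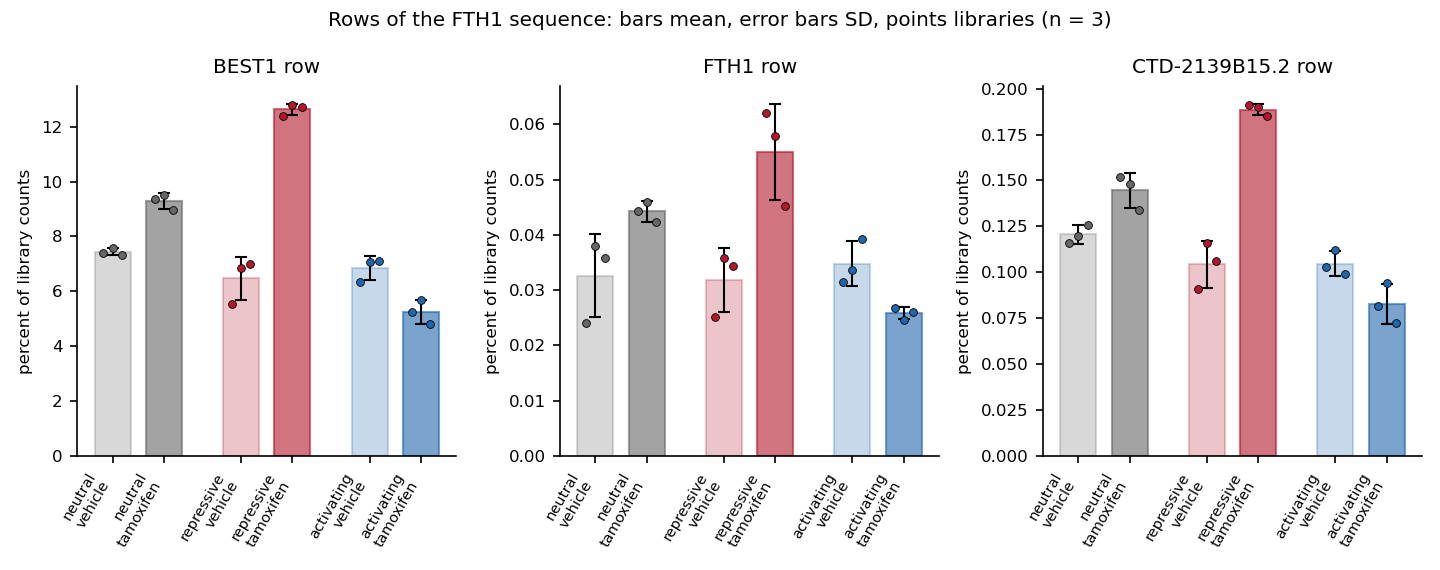
Percent of library counts (y axis) of the BEST1, FTH1 and CTD-2139B15.2 rows in the 6 groups (x axis), with points for libraries, bars for means and error bars for the SD of 3 libraries. The 3 panels have different scales from 0, and in each the repressive line with tamoxifen is highest and the activating line with tamoxifen lowest.

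In all libraries most counts of the shared FTH1 locus stood in the BEST1 row. BEST1 held 99.53% of the counts of BEST1 and FTH1 together, with 99.45% and 99.68% as the extremes over 18 libraries. The group means of that share differed little, from 99.50% ± 0.04 (SD, n = 3) in the activating line with vehicle to 99.57% ± 0.071 in the repressive line with tamoxifen. CTD-2139B15.2 held 1.57 counts per 100 counts of BEST1, from 1.39 to 1.72. Per kilobase of exon, the mean was 6859 counts for BEST1, 1070 for CTD-2139B15.2, 139 for FTH1 and 24.2 for FTL. The row of GAPDH, the glycolytic enzyme often used as a reference, followed the same order. It held 213 to 389 counts, while RP5-940J5.9 on its opposite strand held 22264 to 30839. Other pairs of rows went both ways, at lower counts. The medians of NFE2L2 (15) and NQO1 (11.5) were below those of their opposite rows HNRNPA3 (22.5) and CTD-2033A16.1 (84). The medians of MAP1LC3B (6.5) and NBR1 (6) were above those of FBXO31 (2) and RP11-242D8.1 (0).

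The first question was whether tamoxifen moved these rows in the line whose construct has a tag alone. In this neutral line BEST1 was higher with tamoxifen by 0.32 on the log2 scale (1.25-fold), given as description. FTH1 differed by 0.44 (SE 0.15), with a DESeq2 adjusted p of 0.0741, and CTD-2139B15.2 by 0.26 (SE 0.10), with an adjusted p of 0.101. Across all 5816 rows 0.774% were called at an adjusted p under 0.05. Of the 4 rows FTH1, FTL, C5orf45 and SQSTM1 none was called by edgeR or in the DESeq2 fit of all libraries, and 3 had an unadjusted p under 0.05. With no filter on low counts FTH1 was called (adjusted p 0.0478), and with only the libraries of this line FTH1 (0.048) and C5orf45 (0.00764) were. The vehicle and tamoxifen libraries did not overlap in 3 of these 4 rows and in 13.3% of all rows tested.

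In the repressive line BEST1 was higher with tamoxifen by 1.10, a 2.14-fold difference. FTH1 rose by 0.92 (SE 0.15, 1.89-fold), with an adjusted p of 1.20e-07 in DESeq2, and CTD-2139B15.2 rose by 0.98 (SE 0.10, 1.98-fold), with an adjusted p of 8.31e-22. The 95% intervals of FTH1 (0.62 to 1.22) and CTD-2139B15.2 (0.80 to 1.17) overlapped. The share of all rows called was 9.65%, and 2 of the 4 rows other than BEST1 were called, namely FTH1 and FTL. Groups did not overlap in 3 of the 4 rows other than BEST1 and in 24.2% of all rows.

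In the activating line BEST1 was lower with tamoxifen by -0.40, which is 1.32-fold lower. CTD-2139B15.2 fell by 0.36 (SE 0.10), with an adjusted p of 0.00679, a call lost in 3 of the 6 fits that left out 1 library (up to 0.147, without replicate 3 with tamoxifen). FTH1 had a log2 value of -0.45 (SE 0.16), and its adjusted p of 0.0475 passed the threshold. It passed in none of these 6 fits, where its adjusted p was between 0.0831 and 0.281, nor in edgeR, at 0.148. The share of all rows called was 2.8%, and FTH1 and C5orf45 were called among the 4. Groups did not overlap in 2 of the 4 rows other than BEST1 and in 16% of all rows.

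**Figure D2:**
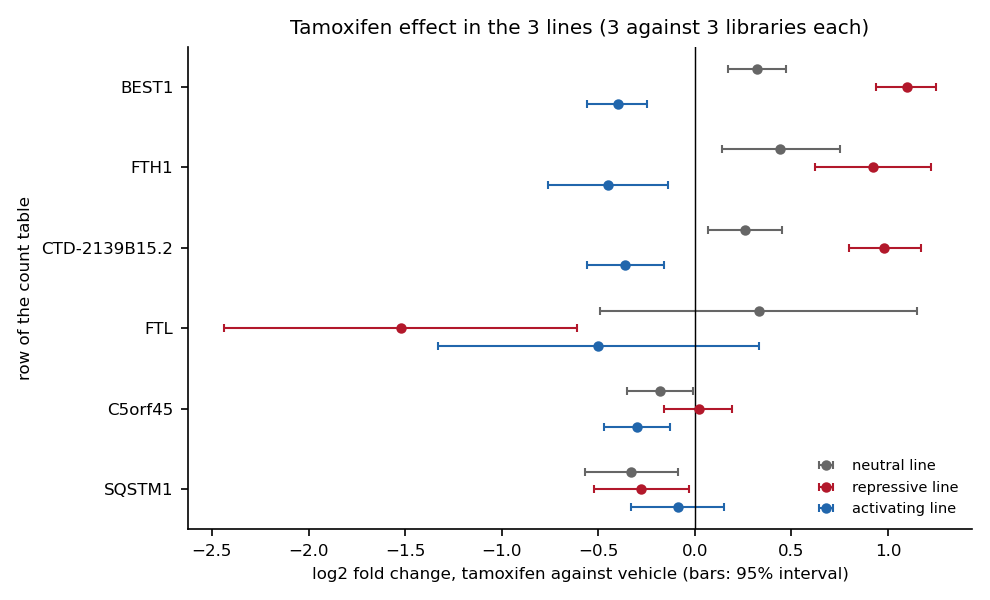
Log2 fold change of tamoxifen against vehicle (x axis) for 6 rows (y axis), with 95% intervals from DESeq2 and a colour for each line of 3 against 3 libraries. The intervals of BEST1 are no test, as its direction in each line was known when it was chosen. BEST1, FTH1 and CTD-2139B15.2 lie at 0.92 to 1.10 in the repressive line and at -0.45 to -0.36 in the activating line, whereas FTL has its lowest value, -1.52, in the repressive line.

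The tamoxifen effects of the lines were then compared with each other as interactions in the same model. These 3 comparisons share libraries, and each is given for its own values. For BEST1 the differences are a description with no test. Its effect was larger in the repressive than in the neutral line by 0.78. It was smaller in the activating line, by -0.72 against the neutral and by -1.50 against the repressive line. FTH1 differed between the repressive and the neutral line by 0.47 (SE 0.22), which was not called at an adjusted p of 0.190 (0.0421 when neutral replicate 1 with vehicle was left out). It was lower in the activating than in the neutral line by -0.89 (SE 0.22, adjusted p 0.00644) and than in the repressive line by -1.37 (SE 0.22, adjusted p 7.74e-08). CTD-2139B15.2 differed in all 3, by 0.72 (adjusted p 1.12e-05), -0.62 (0.00171) and -1.34 (1.87e-19), each with an SE of 0.14. As both rows share bases with BEST1, the p-values of FTH1 and CTD-2139B15.2 are no support separate from BEST1. All 5816 rows were called at 3.85%, 0.619% and 4.25% in these interactions, in the same order.

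The vehicle groups were compared to see where the lines stood without tamoxifen. BEST1 was lower in the repressive than in the neutral line by -0.25, or by -0.14 without replicate 1 of the repressive line. It was lower in the activating than in the neutral line by -0.19. FTH1 differed by -0.08 (-0.39 to 0.22) and 0.03 (-0.28 to 0.33) in the same comparisons. None of the 4 rows FTH1, FTL, C5orf45 and SQSTM1 was called between vehicle groups by DESeq2 or edgeR in the fits of all 18 libraries, and 1 unadjusted p, for C5orf45 between the activating and the repressive line, was under 0.05. Without replicate 1 of the repressive line with vehicle, that C5orf45 difference went from -0.19 to -0.31 and was called (adjusted p 0.00223). The shares of all rows called were 2.51% for the repressive against the neutral line, 0.808% for the activating against the neutral line and 1.72% for the activating against the repressive line.

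The rows whose levels were most like BEST1 were sought among 1462 tested rows with a mean of at least 50 normalized counts. Over 18 libraries CTD-2139B15.2 came first, with a Pearson r of 0.988 on log2(normalized count + 1), and FTH1 second, with 0.918. DGCR6 (0.895), CTA-384D8.36 (0.893) and HCG4P5 (0.893) followed. When the group means were taken out, r with BEST1 was 0.816 for CTD-2139B15.2 and 0.398 for FTH1. These libraries share their 6 groups, and the rows hold the same letters in part, so that reads can be divided among them, and the correlations are a description.

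**Figure D3:**
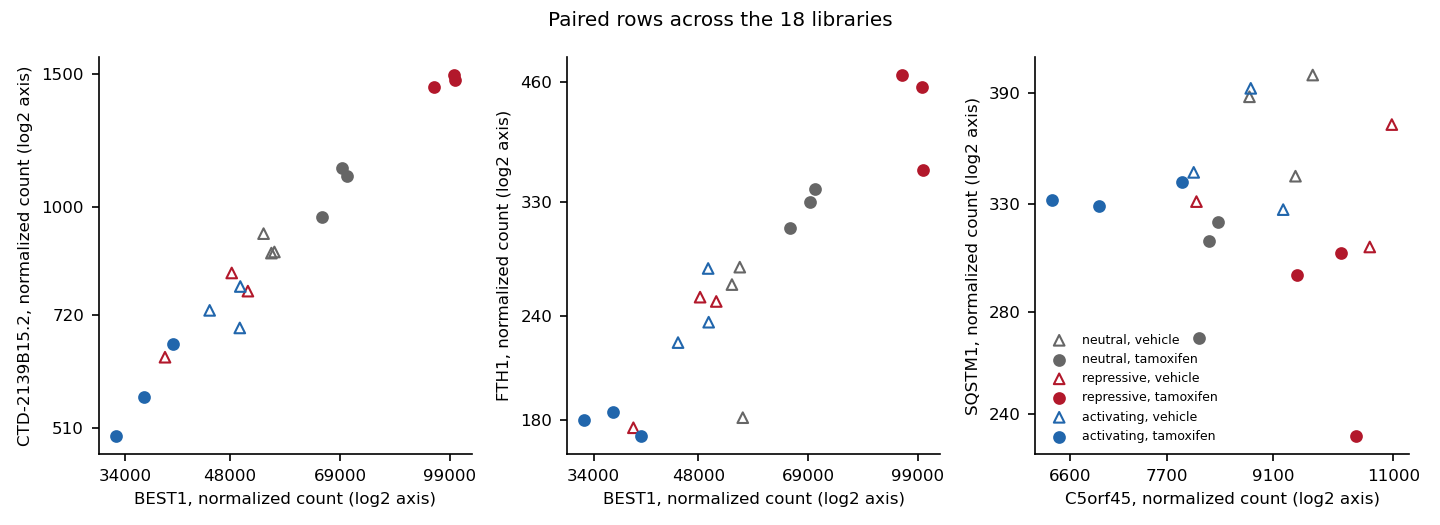
Normalized counts of paired rows in the 18 libraries on log2 axes, with triangles for vehicle, circles for tamoxifen and a colour for each line. CTD-2139B15.2 follows BEST1 closely (r = 0.988) and FTH1 follows it more loosely (r = 0.918), whereas SQSTM1 and C5orf45 show no common trend (r = -0.0877).

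FTL, the ferritin light chain, held 4 to 36 counts per library, so that its values are less precise than those of the other rows. In the neutral line the counts were 17, 23 and 21 with vehicle and 33, 14 and 30 with tamoxifen, and in the activating line they were 30, 19 and 28 with vehicle and 15, 18 and 20 with tamoxifen. The repressive line held 21, 36 and 29 with vehicle and 11, 11 and 4 with tamoxifen. Vehicle and tamoxifen libraries did not overlap in the repressive line and overlapped in both others. In the repressive line FTL fell by 1.52 on the log2 scale (SE 0.47, 2.87-fold lower), with an adjusted p of 0.0130 in DESeq2, which is the opposite direction to FTH1. The call was lost when replicate 2 with vehicle (adjusted p 0.0899) or replicate 3 with tamoxifen (0.126) was left out. In the neutral and the activating line the log2 fold changes were 0.33 (95% interval -0.49 to 1.15) and -0.50 (-1.33 to 0.33), and no adjusted p was given because of the low counts. The effect in the repressive line was lower than in the neutral line by -1.85 (SE 0.63, adjusted p 0.0454), and of the 12 fits that left out 1 library, 7 lost that call and 3 gave no adjusted p. It was also lost in edgeR (0.0908), without independent filtering (0.0769), with only the libraries compared (0.0675), with a replicate block (0.0666) and with pseudogene rows added (0.0615).

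C5orf45 took on average 1.22% of all counts, from 0.934% to 1.51%, and stood at rank 9 of all rows by mean count. In the neutral line it held 1.29%, 1.30% and 1.20% with vehicle and 1.09%, 1.12% and 1.13% with tamoxifen. In the repressive line it held 1.16%, 1.50% and 1.51% with vehicle and 1.25%, 1.32% and 1.27% with tamoxifen. The activating line held 1.13%, 1.32% and 1.26% with vehicle and 1.00%, 1.13% and 0.934% with tamoxifen. By normalized count the tamoxifen libraries lay below the vehicle libraries in the neutral and activating lines and overlapped them in the repressive line, where replicate 1 with vehicle was low, as it was for BEST1.

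SQSTM1, the receptor row itself, held 200 to 434 counts, a mean of 0.0457% of all counts. In the neutral line the counts were 385, 360 and 394 with vehicle and 279, 329 and 307 with tamoxifen. The repressive line held 349, 344 and 405 with vehicle and 305, 200 and 292 with tamoxifen. In the activating line they were 376, 339 and 434 with vehicle and 325, 366 and 360 with tamoxifen. The tamoxifen libraries lay below the vehicle libraries in the neutral and repressive lines and among them in the activating line. C5orf45 held 96.33% of the counts of this pair of rows, from 95.09% to 97.81%, and per kilobase of exon the mean was 1075 counts for C5orf45 and 45.3 for SQSTM1.

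**Figure D4:**
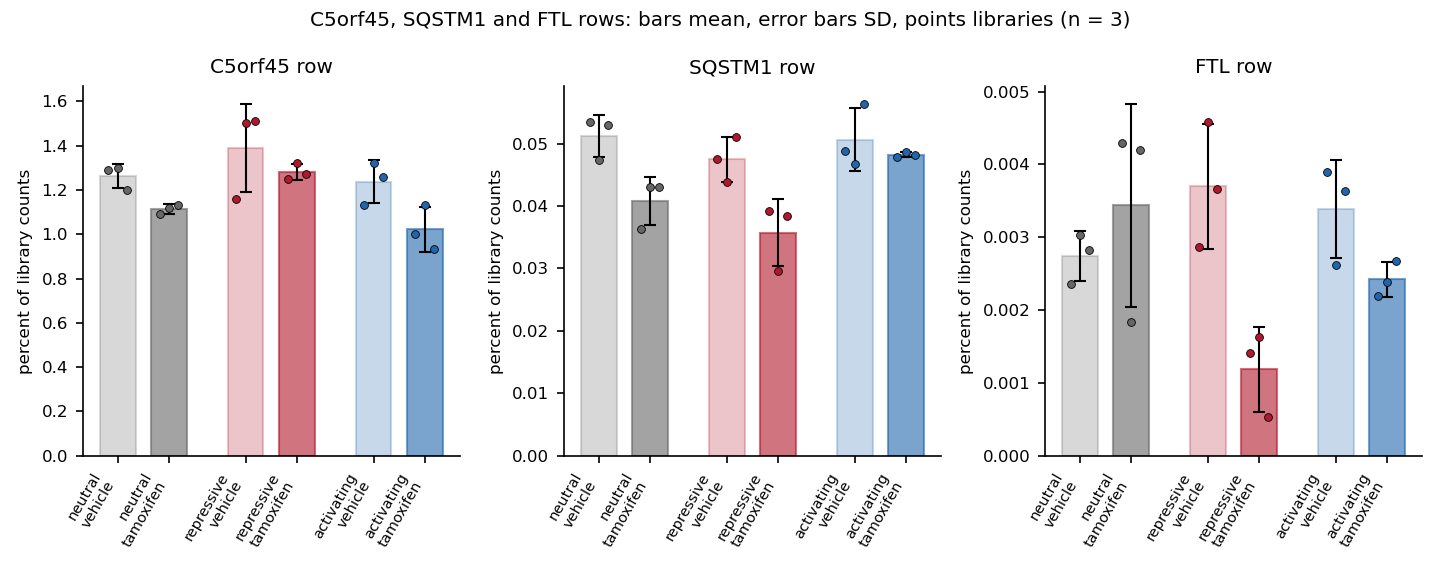
Percent of library counts (y axis) of the C5orf45, SQSTM1 and FTL rows in the 6 groups (x axis), with points for libraries, bars for means and error bars for the SD of 3 libraries. FTL is lowest in the repressive line with tamoxifen, and SQSTM1 is lower with tamoxifen than with vehicle in the neutral and repressive lines without overlap.

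C5orf45 fell with tamoxifen in the activating line, its log2 value being -0.30 (SE 0.09, adjusted p 0.0117 in DESeq2). That call was lost in 4 of the 6 fits that left out 1 library, where the highest adjusted p was 0.163, without replicate 3 with tamoxifen. The log2 fold changes were -0.18 (SE 0.09, adjusted p 0.295) in the neutral line and 0.02 (SE 0.09, adjusted p 0.955) in the repressive line. The last value turned to -0.12 when libraries were scaled by their total counts. No difference between lines in the effect on C5orf45 was called with all libraries, and the widest, -0.31 between the activating and the repressive line (95% interval -0.55 to -0.07), had an adjusted p of 0.118. That difference was called at -0.40 (adjusted p 0.0254) when activating replicate 2 with tamoxifen was left out and at -0.39 (0.0262) when repressive replicate 3 with vehicle was, and it was -0.16 under total-count scaling.

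SQSTM1 had a negative log2 fold change in each line but no call: -0.33 (SE 0.12, adjusted p 0.101) in the neutral line, -0.28 (SE 0.12, adjusted p 0.143) in the repressive line and -0.09 (SE 0.12, adjusted p 0.750) in the activating line. Scaling by total counts gave -0.41 in the repressive line, with an adjusted p of 0.0101. That scaling shifted the median of all rows by -0.13 in the repressive line, by -0.13 for the repressive minus the neutral line and by 0.15 for the activating minus the repressive line. It left the directions of BEST1, FTH1, FTL and SQSTM1 in the 3 lines as they were. The SQSTM1 effect differed by 0.05 between the repressive and the neutral line, by 0.24 between the activating and the neutral line and by 0.19 between the activating and the repressive line, with adjusted p of at least 0.589. Total-count scaling gave -0.08, 0.26 and 0.34, so that the first turned its direction, with adjusted p of at least 0.324.

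C5orf45 and SQSTM1 did not move together across the libraries. Their r over 18 libraries was -0.0877, place 943 of 1462, whereas the rows most like C5orf45 were KRT8 (0.833), RP4-781K5.2 (0.811), RP11-1100L3.7 (0.803), NUDT6 (0.802) and RP4-751H13.7 (0.794). Each of these 5 rows lies opposite another gene, KRT8 opposite KRT18, RP4-781K5.2 opposite IRF2BP2, RP11-1100L3.7 opposite C12orf44, NUDT6 opposite FGF2 and RP4-751H13.7 opposite ZNF862. The share of the 1462 rows that lie opposite another gene was not counted, so this is a description.

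BEST1 is known from the retinal pigment epithelium, and the rows of markers of that tissue held few counts. With the strand setting not given, these low counts do not show whether the marker genes were expressed. Of 10 markers of the retinal pigment epithelium, 6 were at 0 in all 18 libraries, among them RPE65, RLBP1 and LRAT, which carry out the visual cycle, and the transcription factor OTX2. The summed level of the 10 was 6 to 30 counts per library, at 15 to 18.8 in the repressive line with tamoxifen and 6 to 20 with vehicle. The highest single count was 23, for SERPINF1.

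The other genes of iron handling were next described, as own rows and as rows of their opposite-strand partners. TFRC, the transferrin receptor that takes up iron, held 0 to 4 counts, SLC40A1, the iron exporter ferroportin, held 0 in all 18 libraries, and HMOX1, which frees iron from heme, held 0 to 3. At this depth a count of 0 allows the row a level of up to 3.79 to 4.44 CPM (counts scaled to a library of standard size). With the strand setting not given, this bounds the row and not the RNA of the gene. These 3 rows were not tested. NCOA4, the receptor that carries ferritin to the lysosome, held 54 to 111 counts, and its log2 fold changes of -0.06, 0.09 and 0.31 in the neutral, repressive and activating line (SE 0.25 to 0.26) were not called.

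Of the 38 genes of the iron list, 10 own rows and 5 opposite-strand rows were tested. In the repressive line, where 9.65% of all rows were called, 1 own row and 2 opposite rows rose and none fell, with median log2 fold changes of 0.07 and 0.60 against -0.02 over all rows tested. STEAP3-AS1, opposite the endosomal iron reductase STEAP3, rose from 146 ± 12.2 to 256 ± 37.9 normalized counts (SD, n = 3, log2 0.81, adjusted p 2.15e-05). PCBP1-AS1, opposite the iron chaperone gene PCBP1, rose from 448 ± 29.7 to 678 ± 30.7 (log2 0.60, adjusted p 2.86e-07). The own row was ACO1, the cytosolic aconitase that acts as iron regulatory protein when iron is low, with a mean of 48.2 normalized counts. It was chosen after its values were seen. ACO1 rose from 48.5 ± 17.2 to 116 ± 17.6 in the repressive line (log2 1.26, adjusted p 1.32e-04) and fell from 29.9 ± 5.12 to 13 ± 0.871 in the activating line (log2 -1.19, adjusted p 0.0146), a difference of -2.45 (SE 0.45, adjusted p 5.84e-06). The call in the activating line was lost in 4 of the 6 fits that left out 1 library, up to an adjusted p of 0.1 without replicate 2 with vehicle. ACO1 was the only call in the activating line, and in the neutral line no iron row was called by DESeq2 or edgeR, nor had any an unadjusted p under 0.05. Among all rows tested, 2.8% were called by DESeq2 in the activating and 0.774% in the neutral line.

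Rows of autophagy were counted beside the shares of all rows called by DESeq2. These were 0.774% in the neutral, 9.65% in the repressive and 2.8% in the activating line. With so few rows tested, the counts are not read as a result about autophagy. Of the 19 receptors and ATG8 proteins, 7 own rows and 1 opposite row were tested, and none was called in any line by DESeq2 or edgeR, with 1 unadjusted p under 0.05, in the repressive line, where the median log2 fold change of the own rows was -0.09. MAP1LC3B, the ATG8 protein that SQSTM1 binds, held 2 to 18 counts and NBR1, a receptor related to SQSTM1, held 0 to 16. Of the 40 genes of the core machinery and lysosome, 14 own rows and 12 opposite rows were tested. In the repressive line 1 own row fell and 1 opposite row rose (medians -0.08 and -0.07 against -0.02 over all rows), and in the neutral line 1 own row rose. No row of this list was called in the activating line by DESeq2 or edgeR, where 3 rows had an unadjusted p under 0.05. ATG10, an E2-like enzyme that joins ATG12 to ATG5, had a mean of 8027 normalized counts and lies opposite the ribosomal protein gene RPS23. It fell from 7545 ± 266 to 5809 ± 480 in the repressive line (SD, n = 3, log2 -0.38, adjusted p 3.09e-10), with log2 values of -0.05 and -0.04 in the neutral and activating line. AC068580.6, opposite the lysosomal protease gene CTSD, rose in the repressive line from 235 ± 8.91 to 361 ± 11.4 (log2 0.62, adjusted p 2.33e-04), where the CTSD row had a log2 fold change of 0.00 (SE 0.19). CTSD itself was called in the neutral line (89.8 ± 19.7 to 144 ± 9.82, log2 0.68, adjusted p 0.0227), a call that edgeR did not make (adjusted p 0.155). That CTSD call was kept in 1 of the 6 fits that left out 1 library (adjusted p up to 0.217, without replicate 3 with tamoxifen). It was also lost without independent filtering (0.0933) and with a replicate block (0.0586).

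In the KEAP1-NFE2L2 pathway, to which SQSTM1 is linked, 13 of 32 own rows were tested and none was called in any line by DESeq2 or edgeR. There were 2 unadjusted p under 0.05, both in the repressive line, where the median log2 fold change of the own rows was 0.23. Over all rows tested, DESeq2 called 0.774% in the neutral, 9.65% in the repressive and 2.8% in the activating line. With 13 rows, the absence of calls is not read as a result about the pathway. KEAP1 held 0 to 20 counts, NFE2L2 2 to 25 and the NFE2L2 target NQO1 5 to 22. NFE2L2 had the widest value of these, with -1.79 on the log2 scale (SE 0.69, adjusted p 0.0723) in the repressive line. Of 6 opposite rows tested, AP000688.14, opposite the carbonyl reductase gene CBR1, rose from 543 ± 14.6 to 813 ± 38.9 normalized counts in the repressive line (SD, n = 3, log2 0.58, adjusted p 3.38e-07) and from 477 ± 31.4 to 619 ± 89.6 in the activating line (log2 0.38, adjusted p 0.00517, and 0.165 without replicate 3 with tamoxifen). Its log2 value in the neutral line was 0.32 (adjusted p 0.051, called in 4 alternatives), and its effects did not differ between lines past the threshold (adjusted p 0.296 to 0.927). SLC7A11-AS1, opposite the cystine transporter gene SLC7A11, fell by 1.36 in the repressive line (SE 0.46, adjusted p 0.0289) at a mean of 27.8 normalized counts, a call lost without any of 4 of the 6 libraries (adjusted p up to 0.175 without replicate 2 with tamoxifen), and was named after its values were seen.

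Ferroptosis is a form of cell death driven by iron and lipid peroxides, and 7 own rows and 3 opposite rows of its 15 genes were tested, with median log2 fold changes of 0.33 and -0.50 in the repressive line. There 1 own row and 1 opposite row were called, beside 9.65% of all rows tested. SLC3A2, the partner chain of the cystine transporter, fell from 85.2 ± 15.4 to 37.6 ± 15.3 normalized counts in the repressive line (SD, n = 3, log2 -1.19, adjusted p 2.54e-04), and its effect there was lower than in the neutral line by -1.21 (adjusted p 0.0211, and 0.0573 in edgeR), a call lost in 5 of the 12 fits that left out 1 library. EMG1, opposite the phospholipid enzyme gene LPCAT3, rose from 222 ± 13.2 to 294 ± 42.3 in the same line (log2 0.41, adjusted p 0.0372). This EMG1 call was lost in edgeR (adjusted p 0.0682), under total-count scaling (0.236), with only the libraries compared (0.0804) and with a replicate block (0.0533). It was kept in 2 of the 6 fits that left out 1 library (adjusted p up to 0.268, without replicate 1 with tamoxifen). No row of this list was called in the neutral or the activating line by DESeq2 or edgeR, where 2 rows had an unadjusted p under 0.05, both in the activating line. The shares of all rows called by DESeq2 were 0.774% in the neutral and 2.8% in the activating line.

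**Figure D5:**
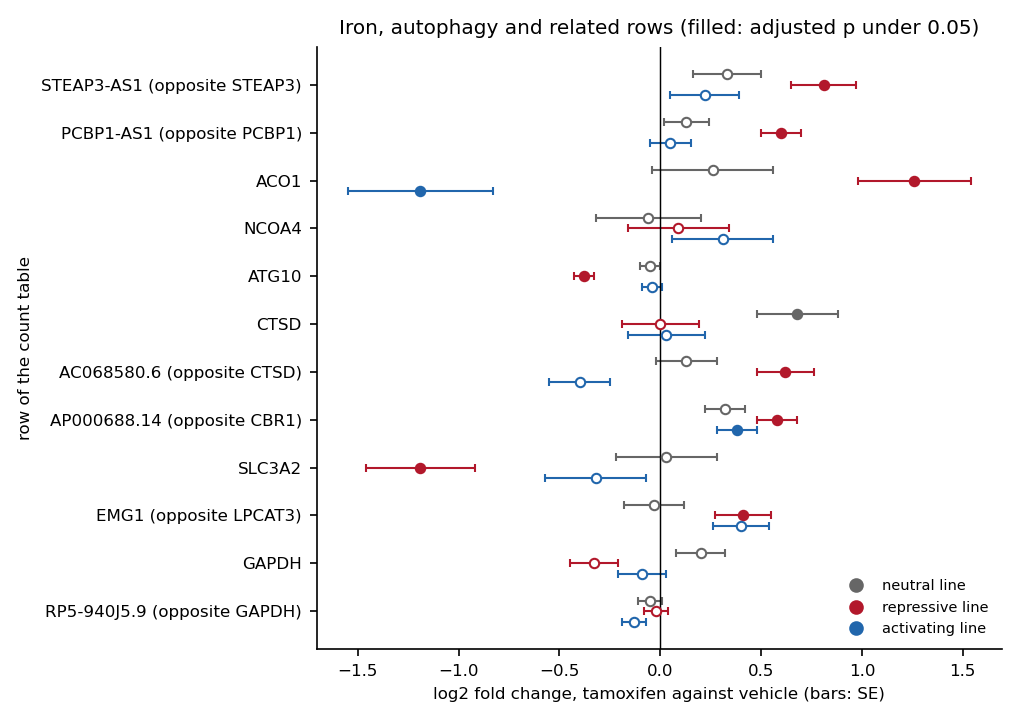
Log2 fold change of tamoxifen against vehicle (x axis, bars for the SE) for 12 rows of the count table (y axis) in the 3 lines, filled where the DESeq2 adjusted p was under 0.05. ACO1 is filled at 1.26 in the repressive and at -1.19 in the activating line, and GAPDH and the row opposite it are filled in none.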

How the data were processed

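RNA-seq libraries of 18 RWPE1 MACC samples were analysed from 1 count table. By the submitters' processing notes and methods, the authors ran the nf-core/rnaseq workflow with the GRCh37 genome option and quantified genes with Salmon 1.9.0. The deposited values are expected counts per gene, that is, estimated reads, not scaled for depth or length. Of the values, 1.10% were not whole, and all were rounded before testing. The authors tested differential expression with DESeq2 1.28.0, whose results were not used here. Which strandedness setting the workflow used is not given in the sources used here.

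A row was tested if 3 or more libraries reached 10 counts (5816 of 57773 rows, holding 97.65% of the counts). A single DESeq2 1.42.0 model (R 4.3.3) fitted 6 group means, with size factors by median of ratios, tests by the Wald statistic, and Benjamini-Hochberg adjustment over the tested rows that passed independent filtering (517 to 4575 of 5816, by comparison). Rows were called at an adjusted p under 0.05. Fold changes are unshrunken. Interactions are differences of tamoxifen effects in that model. The fit was tested on simulated counts. Total counts were 675609 to 792282 per library, with a median of 755562, and a floor of 3 counts allows a row at 0 up to 3.79 to 4.44 CPM. Floors cover counting error only. No pair of replicates agreed within sampling noise.

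Positions and opposite-strand partners (the gene with the largest exon overlap on the other strand) come from a GENCODE annotation mapped to GRCh37, which matched 96.1% of the rows (55538) by identifier. Sequences were read from the GRCh37 genome and the transcripts of that annotation, and words of 31 bases were compared with the reverse complement of each member. The stretch shared by FTH1 and BEST1 is not reported here as sequence. Symbols are those of the table, where ATG101 and PECAM1 were not found.

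The members, the gene lists and the naming rule were chosen with earlier results of these data known. Of a list, a row was named if called in a tamoxifen or interaction comparison with a mean of at least 50 normalized counts, at most 6 per list. TFRC, SLC40A1, NCOA4, HMOX1, KEAP1, NFE2L2, NQO1, MAP1LC3B, NBR1 and GAPDH were always named. Rows of markers of other cell types held at most a summed 29.9 counts per library for macrophages and 13 for fibroblasts. They held 0 for endothelium and at most 1 for erythroid cells. These counts describe the rows and not the expression of the genes. Alternatives were edgeR 4.0.16 quasi-likelihood tests with TMM, total-count scaling, no low-count filter, no independent filtering, a fit of only the libraries compared, a replicate block, leaving out each library, summing opposite-strand rows and adding ferritin pseudogene rows.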

Additional observations from a re-analysis of the deposited data

Results flagged for a closer look

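In 14 results the tamoxifen effect differed between lines by a test of the difference itself (log2 differences with SE and DESeq2 adjusted p). Over all rows tested, DESeq2 called 3.85% for the repressive minus the neutral effect and 0.619% for the activating minus the neutral effect. It called 4.25% for the activating minus the repressive effect. How many differences were looked at is not given, so the 14 are not read as a share. The rows were chosen with earlier results known. The comparisons share libraries. FTH1 shares exonic bases with BEST1 on the opposite strand, and CTD-2139B15.2 shares sequence with it. The p-values of both rows are therefore no support separate from BEST1.

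Between the repressive and the neutral line, CTD-2139B15.2 differed by 0.72 (SE 0.14, 1.12e-05) and ATG10 by -0.33 (SE 0.08, 8.04e-04). FTL differed by -1.85 (SE 0.63, 0.0454), SLC3A2 by -1.21 (SE 0.37, 0.0211), GAPDH by -0.53 (SE 0.17, 0.0299) and PCBP1-AS1 by 0.47 (SE 0.15, 0.0274). Each of these last 4 calls was lost in edgeR (0.0908, 0.0573, 0.103 and 0.0755 in that order) and, of the 12 fits that left out 1 library, in 7, 5, 6 and 6. PCBP1-AS1 was also lost under total-count scaling (0.34, 0.159), and GAPDH without independent filtering (0.0518).

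Between the activating and the neutral line, FTH1 differed by -0.89 (SE 0.22, 0.00644) and CTD-2139B15.2 by -0.62 (SE 0.14, 0.00171).

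Between the activating and the repressive line, FTH1 differed by -1.37 (SE 0.22, 7.74e-08) and CTD-2139B15.2 by -1.34 (SE 0.14, 1.87e-19). ACO1 differed by -2.45 (SE 0.45, 5.84e-06), AC068580.6 by -1.02 (SE 0.21, 3.91e-05), PCBP1-AS1 by -0.55 (SE 0.15, 0.00481, and 0.108 under total-count scaling) and ATG10 by 0.34 (SE 0.08, 4.06e-04). No cause of these differences was tested.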

How the results depend on the processing

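Of 3165 values of the members and named rows under the alternatives, 3035 kept their side of the threshold, 97 lost a call, 33 gained one and 0 reversed a called direction. Of the 3035, 110 values that were not called took the other sign. Counts of called rows moved by over 1.5 times in these cases, and the cause was not tested. In the neutral line 45 became 22 in edgeR and 26 without independent filtering. In the activating line 163 became 102 in edgeR. For the activating minus the neutral effect 36 became 17 in edgeR and 22 without independent filtering. Between the activating and neutral vehicle groups 47 became 4 in edgeR, 29 with total-count scaling and 8 without independent filtering, and between the activating and repressive vehicle groups 100 became 57 with only the libraries compared. Leaving out 1 library gave 23 to 36 calls in the neutral line (23 without neutral replicate 3 with tamoxifen, 27 without replicate 1), 442 to 501 in the repressive line, 94 to 129 in the activating line (94 without activating replicate 3 with tamoxifen, 96 without replicate 2 with vehicle), 2 to 53 between the activating and neutral vehicle groups (2 without activating replicate 3) and 65 to 106 between the activating and repressive vehicle groups (65 without activating replicate 3).

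Total-count scaling turned the split of higher and lower calls in the repressive line from 327 and 234 to 230 and 381, for the repressive minus the neutral effect from 136 and 88 to 92 and 160, and for the activating minus the repressive effect from 95 and 152 to 189 and 109. In the activating line 78 and 85 became 91 and 75. With vehicle, 58 and 88 became 85 and 72 (repressive against neutral), 7 and 40 became 11 and 18 (activating against neutral), and 43 and 57 became 53 and 50 (activating against repressive).

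Samples with the same replicate number had correlations of deviations of -0.302 to 0.138 (9 pairs), and those with different numbers -0.155 to 0.176 (18 pairs), so the numbers did not pair the samples. With the replicate block 39, 538 and 134 rows passed in the 3 lines (neutral, repressive, activating), 212, 34 and 222 in the differences between lines, and 140, 43 and 91 between vehicle groups. FTL and the rows near 0 counts were measured imprecisely, and the cause of their low counts was not tested.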
